A study of Homo sapiens with 6 samples.

Results

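The BCL2 family genes described here are BCL2, BCL2L1, MCL1, BCL2A1, BAX, BAK1, PMAIP1, BBC3, BCL2L11 and BID, 10 of the 61852 genes in a count table of MEG-01 cells. They were taken by gene symbol from a list made with earlier results of these data known. MEG-01 is an established human megakaryoblastic leukaemia line. The table compares 3 RNA-seq libraries of cells transduced with the control vector pLKO.1 with 3 libraries of cells carrying sh2-MELK, a short hairpin RNA against the kinase gene MELK. All 6 library names share their first element, and the sample titles name no batch. Only 1 hairpin was analysed, and the labels describe the control as a vector, not as a hairpin without a target. The labels call the libraries biological replicates without saying what separates them, and the p-values reflect only how far these libraries differ from each other, which may be technical.

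BCL2 family proteins set whether the outer mitochondrial membrane is opened during apoptosis. Anti-apoptotic members (BCL2, BCL-XL from BCL2L1, MCL1 and BFL1 from BCL2A1) hold back the pore-forming effectors BAX and BAK, and BH3-only proteins such as NOXA (PMAIP1), PUMA (BBC3), BIM (BCL2L11) and BID free or activate the effectors. In the megakaryocyte lineage BCL-XL is known to restrain BAK and so to set platelet lifespan, and BCL-XL and MCL1 together keep megakaryocytes alive. The counts here are of RNA summed per gene, so long and short isoforms of BCL2L1, MCL1 and BCL2L11 are not told apart, and protein was not measured.

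The table of RefSeq promoters, 250 bases before to 50 after an annotated start on GRCh38.p14, had entries for 9 of the 10 members, all but MCL1. They were searched on both strands for TTCNNNGAA, the core of STAT sites, for TGACGTCA, the cyclic AMP response element, and AGATAA, which GATA factors bind. These motifs do not contain one another. Of 35116 promoters, 7.66% held the first, 1.85% the second and 10.3% the third. The 1 match among the members was TTCNNNGAA in BCL2A1, starting at position -168 from the start, and a match of letters does not show a bound site. Printed 5′ to 3′ are the promoters of the member with the largest rise (PMAIP1, chr18:59899746-59900045, plus strand), of the most abundant member, which had the largest fall (BCL2L1, the first of its 2 annotated starts, chr20:31723914-31724213, minus strand), and of BCL2A1 (chr15:79971147-79971446, minus strand) with its match in capitals.
PMAIP1: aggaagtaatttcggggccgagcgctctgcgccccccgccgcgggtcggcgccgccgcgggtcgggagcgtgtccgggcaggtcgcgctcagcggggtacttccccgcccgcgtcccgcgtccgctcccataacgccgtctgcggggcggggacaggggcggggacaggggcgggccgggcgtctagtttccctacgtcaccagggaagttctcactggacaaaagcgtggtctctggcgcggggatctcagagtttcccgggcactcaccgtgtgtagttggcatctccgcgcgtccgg
BCL2L1: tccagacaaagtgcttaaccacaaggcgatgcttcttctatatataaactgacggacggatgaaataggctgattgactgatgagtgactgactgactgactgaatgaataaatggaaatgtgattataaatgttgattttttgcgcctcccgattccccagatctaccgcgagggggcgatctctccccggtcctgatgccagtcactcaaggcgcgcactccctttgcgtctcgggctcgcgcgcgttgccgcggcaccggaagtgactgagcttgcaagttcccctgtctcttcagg
BCL2A1: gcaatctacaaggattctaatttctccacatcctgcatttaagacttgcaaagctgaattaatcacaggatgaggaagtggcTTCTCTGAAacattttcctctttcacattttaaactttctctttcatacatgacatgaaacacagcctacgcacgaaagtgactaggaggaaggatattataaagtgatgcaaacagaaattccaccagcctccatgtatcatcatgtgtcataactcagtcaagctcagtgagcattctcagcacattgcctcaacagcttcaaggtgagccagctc
GC content was 71.3% in this PMAIP1 promoter, 52.0% in this BCL2L1 promoter and 41.0% in the BCL2A1 promoter.

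Library totals ran from 18945176 to 21711313 counts. In 35797 genes (57.9%) every value was 0, 1, 2, 10 or 100, each in 19.8% to 20.4% of values, so the deposited values behave as a read count with a number drawn from these 5 on top. In genes with 100 to 200 modelled reads, the level of BCL2, the mixture gave each number an estimated share of 18.3% to 20.9%. The shares were 17.1% to 25.9% at 50 to 100 reads and 16.8% to 24.1% at 20 to 50 reads, and fewer reads, the level of BCL2A1, were not checked this way. It matters little for an abundant gene, and it can add 100 counts to 1 library of a gene with few reads. For members with a mean under 500 counts the change was therefore also estimated with the added number modelled, as a negative binomial read count plus 1 of the 5 numbers. The megakaryocyte marker ITGA2B was abundant, at 38101 to 42813 counts in the control and 19793 to 21838 in the knockdown, and ITGB3 and GP6 were also above a mean of 500 counts, while GP1BB and PF4 held only the 5 added numbers. The summed level of 12 megakaryocyte markers was 2183 to 2297 CPM (counts scaled to the same total, with TMM-adjusted library sizes) in the control and 1245 to 1303 CPM in the knockdown. Most of that sum came from ITGA2B, so its fall is mainly that of ITGA2B. ITGB3 fell too, from 1269, 1279 and 1336 counts to 794, 850 and 693. GP6 rose, from 1786, 1733 and 1857 counts to 2579, 2667 and 2271. For 8 erythroid markers the summed level was 1155 to 1175 CPM and 510 to 526 CPM, with 0 of the 8 holding only the added numbers. It was 360 to 387 and 227 to 244 CPM for 8 granulocyte and monocyte markers, and at most 17.8 CPM in any library for the lymphocyte markers. Of the granulocyte and monocyte markers, ITGAM and CD33 fell. LYZ rose slightly (log2 fold change 0.27 ± 0.07 SE, edgeR adjusted p = 0.0428), but not with the GC trend described below removed (-0.05). No lymphocyte marker reached a mean of 500 counts, so added numbers may make up much of that sum. Mitochondrial genes took 10.2% to 10.7% of control counts and 9.12% to 9.18% of knockdown counts. The part these shifts have in the results below was not tested.

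MELK itself had deposited counts of 219, 206 and 238 in control libraries, against 16, 124 and 26 in knockdown libraries. The groups did not overlap, and knockdown library 2 stood above the other two. With the added number modelled, 100 was the most likely addition in that library, leaving 24 reads. MELK did not pass edgeR's quasi-likelihood test (log2 fold change -1.98 ± 0.69 SE, Benjamini-Hochberg adjusted p = 0.104), and without knockdown library 2 the value was -3.32 (edgeR adjusted p = 0.00271). The modelled change was -3.38 (95% interval -3.87 to -2.97).

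In edgeR, before removal of the GC trend described below, members moved in both directions within every functional class except the effectors. PMAIP1, MCL1 and BCL2L11 rose in the knockdown, BCL2L1, BBC3, BAK1 and BID fell, and BAX and BCL2 did not pass. BCL2A1 had too few counts to be tested by edgeR. Thus 7 of 9 tested members passed an adjusted p of 0.05, 3 higher and 4 lower, beside 16.5% of all 28303 genes tested (8.12% higher, 8.43% lower). Genes measured about as well give a closer background: of 5038 genes with a mean count of 500 or more 68% passed (32.5% higher, 35.5% lower), and of the 8 members at that level 7 did. PMAIP1 reached that level only through its knockdown counts. The median log2 fold change of the 9 tested members was -0.26, against 0.02 over all genes tested, and that of the 8 was -0.13, against -0.02 over the 5038. The CPM of the groups did not overlap in 7 of these 8 members, all but BAX, against 79.2% of the 5038 genes and 30.7% of all genes tested. In bulk RNA, fewer cells that express a gene and less of its RNA per cell cannot be told apart.

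**Figure D1:**
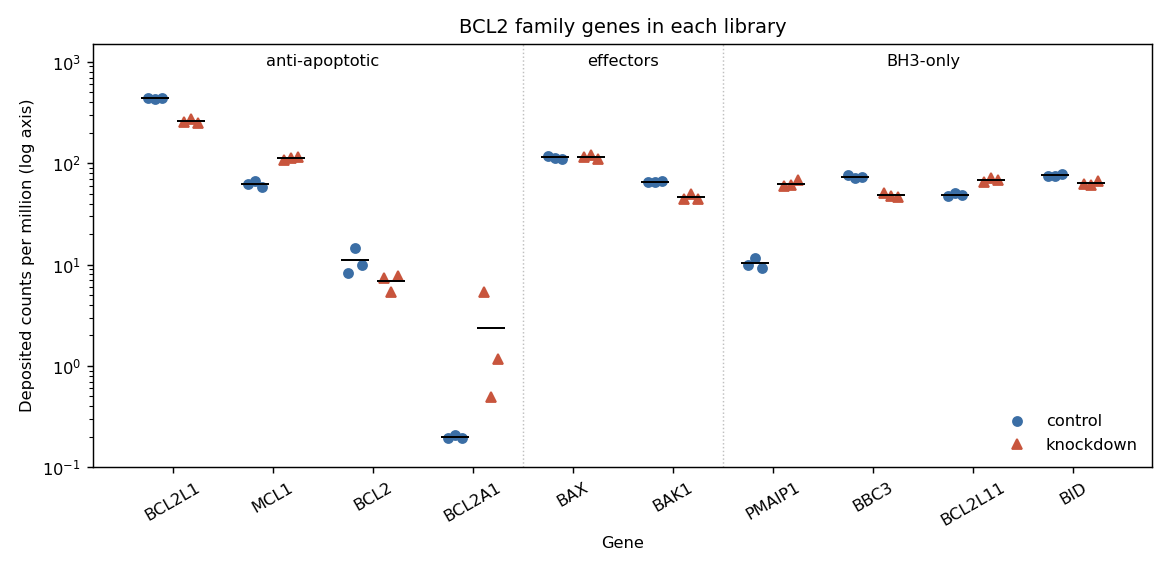
Counts, as CPM, of the 10 genes in each library, on a log axis, with blue circles for control, red triangles for knockdown and black bars for the mean of 3 libraries. The groups separate in every gene but BAX, and the separation is widest in PMAIP1 among the better measured genes, while BCL2 and BCL2A1 lie low and scatter.

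Among the anti-apoptotic genes, BCL2L1 was the most abundant and fell. It encodes BCL-XL (ENSG00000171552, GRCh38 chromosome 20, 31664452 to 31723989, minus strand, protein coding). Its control libraries had 8925, 8299 and 8961 counts, its knockdown libraries 4980, 5553 and 4709. All 3 knockdown libraries lay far below all control libraries, whose normalised levels were within 431 to 437 CPM. The mean went from 435 ± 3.68 CPM to 259 ± 14.4 CPM (SD, n = 3), a difference of -0.75 ± 0.04 (SE) on the log2 scale by edgeR (adjusted p = 6.02e-06), to 0.596 of the control level. In the annotation 43.0% of its exon bases also lie in ABALON, an antisense gene, which had 163 to 348 deposited counts. Whether counting used strand is not stated in the labels, and reads over that stretch cannot be assigned with certainty.

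MCL1, a short-lived guardian of myeloid and megakaryocytic survival, went the other way (ENSG00000143384, chromosome 1, 150574551 to 150579738, minus strand). Control libraries had 1258, 1282 and 1205 counts and knockdown libraries 2130, 2258 and 2157. The knockdown libraries were close to each other and all higher. The mean rose to 111.5 ± 3.16 CPM, up from 62.3 ± 3.93 (SD, n = 3), a difference of 0.84 ± 0.05 (SE) on the log2 scale by edgeR (adjusted p = 1.28e-05) or 1.79-fold. Because BCL2L1 and MCL1 moved in opposite directions, their ratio of counts within a library, which no scaling between libraries can alter, changed more than either gene. It was 7.09, 6.47 and 7.44 in control libraries, against 2.34, 2.46 and 2.18 in knockdown libraries, without overlap. The count ratios and shares given here are not corrected for each library's trend with GC content, described below. With that trend removed the log2 fold changes were nearer to each other, at -0.56 for BCL2L1 and 0.65 for MCL1.

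BCL2, the founding member, had few reads (ENSG00000171791, chromosome 18, 63123346 to 63320128, minus strand). Its control libraries had 169, 283 and 204 counts, its knockdown libraries 145, 109 and 144. Control library 2 was the highest, and 100 was its most likely added number, leaving 183 reads. As deposited, the log2 fold change was -0.69 ± 0.28 SE and did not pass (edgeR adjusted p = 0.166). When that number was modelled, reads went from 180.0 (95% interval 164 to 196) to 131 (118 to 147) per library of average size, a change of -0.45 (-0.66 to -0.25). In that likelihood-ratio test BCL2 passed (adjusted p = 0.000145), as did 33.6% of the 28315 genes adjusted over, and the test assumes 1 dispersion for every gene.

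BCL2A1, an NF-κB-responsive gene of leukocytes, was near the limit of detection (ENSG00000140379, chromosome 15, 79960889 to 79971446, minus strand). Counts were 4 in each control library and 106, 10 and 22 in the knockdown. In knockdown library 1, 100 was the most likely added number, leaving 6 reads. The modelled means were 2.83 reads (95% interval 1.17 to 5.41) and 9.19 reads (6.10 to 13.3), a log2 change of 1.70 (0.58 to 3.07, adjusted p = 0.00826). So few reads give no more than a low level in both groups, and the 3 identical control values leave the split between reads and added number uncertain.

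**Figure D2:**
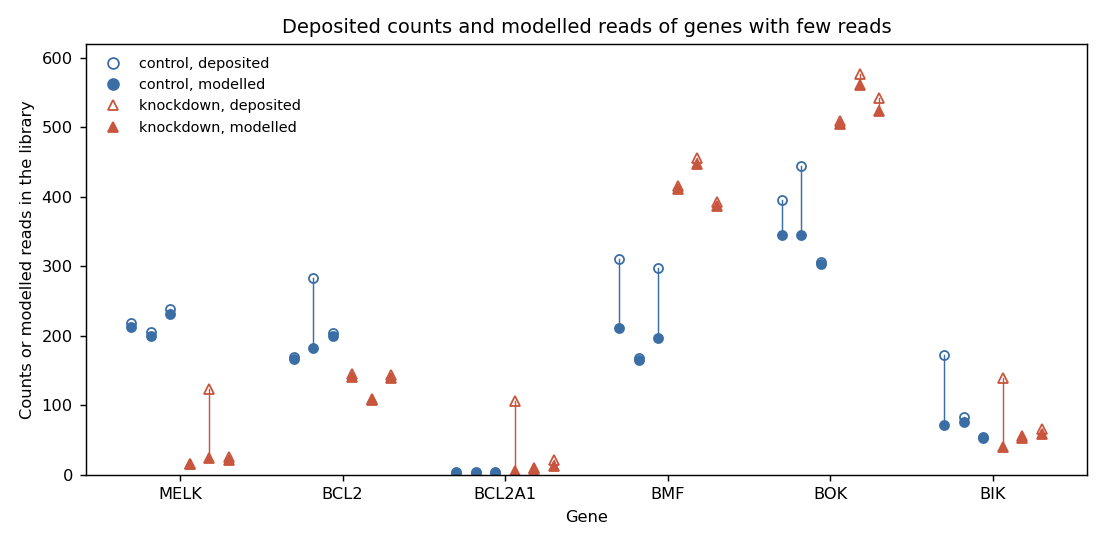
Deposited counts (open symbols) and modelled reads (filled symbols) in each library for MELK, BCL2, BCL2A1 and the related genes BMF, BOK and BIK, with circles for control and triangles for knockdown. Lines join both values of a library, and the long lines are libraries in which 100 was the likely addition, such as knockdown library 2 of MELK and control library 2 of BCL2.

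The 2 pore-forming effectors differed from each other. BAX (ENSG00000087088, chromosome 19, 48954815 to 48961798, plus strand) had 2422, 2183 and 2275 counts in control libraries, against 2275, 2416 and 2061 in knockdown libraries. The groups overlapped in CPM, at 111 to 119 and 109 to 120.0. The log2 fold change was 0.01 ± 0.05 SE (edgeR adjusted p = 1.00), and the modelled 95% interval was -0.07 to 0.12. With each library's trend with GC content removed, BAX was higher in the knockdown (0.25, edgeR adjusted p = 4.54e-05). BAK1 (ENSG00000030110, chromosome 6, 33572547 to 33580293, minus strand) had 1343, 1267 and 1354 counts in control libraries, against 875, 1000 and 830 in knockdown libraries. Every knockdown library was lower, and the mean fell from 65.9 ± 0.165 to 46.0 ± 3.18 CPM (SD, n = 3). The log2 fold change of BAK1 was -0.52 ± 0.06 SE (edgeR adjusted p = 0.000321), and it was -0.28 with the GC trend removed (edgeR adjusted p = 0.000680). BAX counts were 1.68 to 1.80 times BAK1 counts across the control libraries, against 2.42 to 2.60 times across the knockdown libraries.

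PMAIP1 showed the largest change of any member with a mean of at least 500 counts. It encodes NOXA, a BH3-only protein that binds MCL1 and BFL1 (ENSG00000141682, chromosome 18, 59899948 to 59904306, plus strand). Control libraries had 203, 224 and 190 counts and knockdown libraries 1179, 1230 and 1279. The mean rose to 62.9 ± 4.27 CPM, up from 10.3 ± 1.21 (SD, n = 3), 6.12-fold, a difference of 2.61 ± 0.10 (SE) on the log2 scale by edgeR (adjusted p = 9.00e-07). Only 7 of the 5038 genes with a mean count of 500 or more had a larger increase. PMAIP1 reached that mean only through its knockdown libraries, so this rank leans on the rise itself. Modelling the added number gave 2.62 (95% interval 2.47 to 2.78). The count ratio of PMAIP1 to its binding partner MCL1 was 0.158 to 0.175 in the control and 0.545 to 0.593 in the knockdown, so PMAIP1 rose beyond the rise of MCL1.

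BBC3, which encodes the BH3-only protein PUMA, fell (ENSG00000105327, chromosome 19, 47220822 to 47232766, minus strand). Control libraries had 1560, 1384 and 1497 counts and knockdown libraries 1001, 964 and 867, with no overlap. The level went from 73.8 ± 2.37 to 48.2 ± 2.44 CPM (SD, n = 3), a difference of -0.61 ± 0.05 (SE) on the log2 scale by edgeR (adjusted p = 7.69e-05). With each library's trend with GC content removed BBC3 did not pass (-0.16, edgeR adjusted p = 0.0573). PMAIP1 and BBC3 moved apart: their count ratio was 0.127 to 0.162 in the control and 1.18 to 1.48 in the knockdown.

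BCL2L11 encodes BIM, which binds all anti-apoptotic members (ENSG00000153094, chromosome 2, 111119378 to 111168447, plus strand). Control libraries had 966, 989 and 991 counts and knockdown libraries 1279, 1436 and 1276. All knockdown libraries were higher, at 68.0 ± 3.24 CPM against 49.0 ± 2.09 (SD, n = 3), and the log2 fold change was 0.47 ± 0.06 SE (edgeR adjusted p = 0.000446). On the other strand the non-coding gene MIR4435-2HG shares 727 of the 6658 exon bases (10.9%), and it rose as well (log2 fold change 0.39 ± 0.04 SE, edgeR adjusted p = 0.000269), so part of the reads may be shared. The count ratio of BCL2L11 to BCL2L1 was 0.108 to 0.119 in the control and 0.257 to 0.271 in the knockdown.

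BID, which is cut by caspase-8 and links death receptors to mitochondria, had the smallest change that passed (ENSG00000015475, chromosome 22, 17734138 to 17774770, minus strand). Control libraries had 1535, 1437 and 1586 counts and knockdown libraries 1217, 1213 and 1267. The groups were apart, at 74.6 to 77.4 CPM and 60.3 to 67.1 CPM, and the log2 fold change was -0.26 ± 0.05 SE (edgeR adjusted p = 0.00804).

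**Figure D3:**
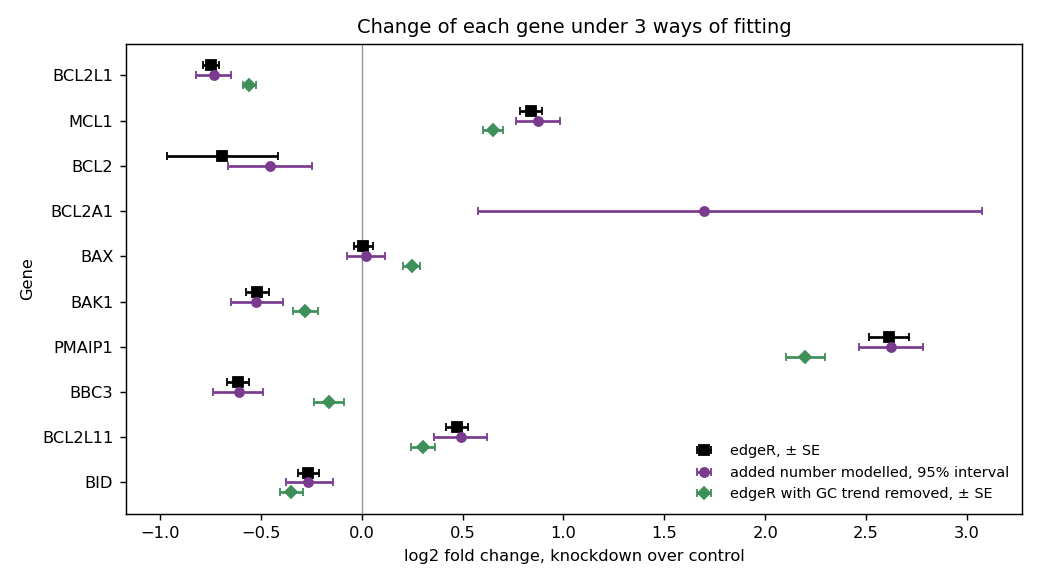
Log2 fold change of knockdown over control for each gene from edgeR (squares, ± SE), from the model of the added number (circles, 95% interval) and from edgeR with each library's GC trend removed (diamonds, ± SE). Genes with a mean under 500 counts have no diamond and BCL2A1 has no square. The sign is the same in all fits shown for every gene. The diamonds of PMAIP1, MCL1, BCL2L11, BCL2L1, BAK1 and BBC3 lie nearer to 0 than their squares, and those of BAX and BID lie farther from 0.

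Levels of different genes were compared as CPM per kilobase of annotated exon. In the control BCL2L1 led with 131 ± 1.11, followed by BAX (44.2 ± 1.51), BAK1 (29.8 ± 0.0745), BBC3 (23.2 ± 0.745), BID (17.0 ± 0.330) and MCL1 (14.3 ± 0.898) (SD, n = 3). BCL2L11 (7.36 ± 0.314) and PMAIP1 (4.60 ± 0.544) were lower, and no neighbours in this order overlapped between libraries. BCL2 and BCL2A1 came last, at 0.777 ± 0.0720 and 0.130 ± 0.00357 from modelled reads. In the knockdown the order was BCL2L1 (78.3 ± 4.35), BAX (44.4 ± 2.10), PMAIP1 (28.1 ± 1.91), MCL1 (25.5 ± 0.724), BAK1 (20.8 ± 1.44), BBC3 (15.2 ± 0.767), BID (14.2 ± 0.813) and BCL2L11 (10.2 ± 0.487), with BCL2 (0.562 ± 0.0936) and BCL2A1 (0.429 ± 0.159) last by modelled reads. PMAIP1 went from the 8th to the 3rd place and MCL1 from the 6th to the 4th. BBC3 and BID overlapped in the knockdown, as did BCL2 and BCL2A1. With the longest transcript as the length, BBC3 stood 3rd in the control and 5th in the knockdown, so places in the middle of the order depend on the annotation.

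Read as shares of the summed modelled reads per kilobase of BCL2, BCL2L1, MCL1, BCL2A1 and BCL2L2, BCL2L1 made up 86.5% to 87.3% of that sum across control libraries, against 70.1% to 72.4% across knockdown libraries. MCL1 went from 8.88% to 9.68% in the control to 22.2% to 24.1% in the knockdown. BCL2L1 thus stayed the largest part in each library. BCL2 stayed at a low share, 0.461% to 0.550% and 0.398% to 0.585%, with overlap. Among BAX, BAK1 and BOK, BAK1 made up 36.4% to 38.0% in the control and 27.1% to 27.4% in the knockdown, and BOK 7.04% to 8.32% and 12.8% to 14.2%.

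**Figure D4:**
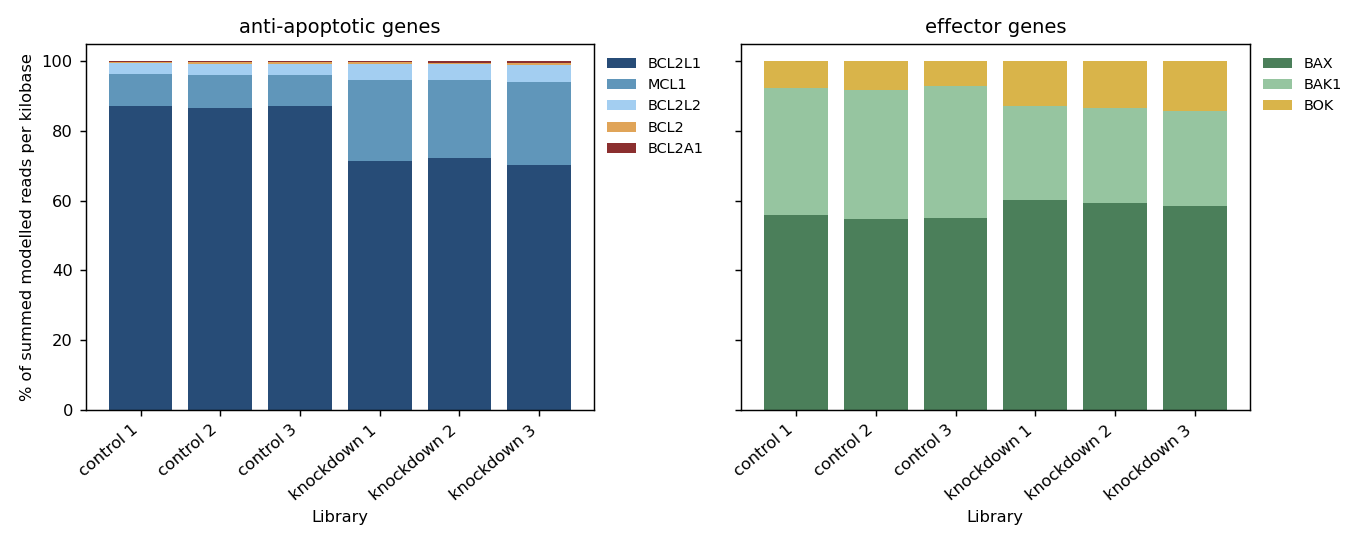
Share of each gene in the summed modelled reads per kilobase of the anti-apoptotic genes (left) and of the effector genes (right), 1 stacked bar per library, in percent. The MCL1 block is wider in all 3 knockdown libraries than in any control library, and the BAK1 block is narrower.

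Across the 5031 genes with a mean count of 500 or more and a known transcript GC content, the log2 fold change fell with GC content (Spearman rho -0.39 across genes, which are not independent replicates). Of the 8 members at that level, 6 changed in the direction of the trend: PMAIP1 (37.2% GC), MCL1 (45.1%) and BCL2L11 (45.7%) rose, and BCL2L1 (56.9%), BAK1 (58.8%) and BBC3 (69.7%) fell. BID (49.7%) fell although the 200 genes nearest to it in GC content had a median log2 fold change of 0.09, and BAX (58.9%) stayed level where its neighbours had -0.17. Among the 200 genes nearest in GC content to each, the median log2 fold change was 0.39 for PMAIP1, 0.10 for MCL1, -0.11 for BCL2L1 and -0.30 for BBC3. With each library's GC trend removed, a fit chosen after the values were seen, PMAIP1 (2.20 ± 0.10 SE), MCL1 (0.65 ± 0.05), BCL2L11 (0.30 ± 0.06), BCL2L1 (-0.56 ± 0.03), BAK1 (-0.28 ± 0.06) and BID (-0.35 ± 0.06) still passed in their direction, with edgeR adjusted p of at most 0.000680. The values of BBC3 and BAX in this fit, given above, had a SE of 0.07 and 0.04. In that fit 77% of 5031 genes passed, 40.6% higher and 36.4% lower. What the GC trend comes from was not tested.

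**Figure D5:**
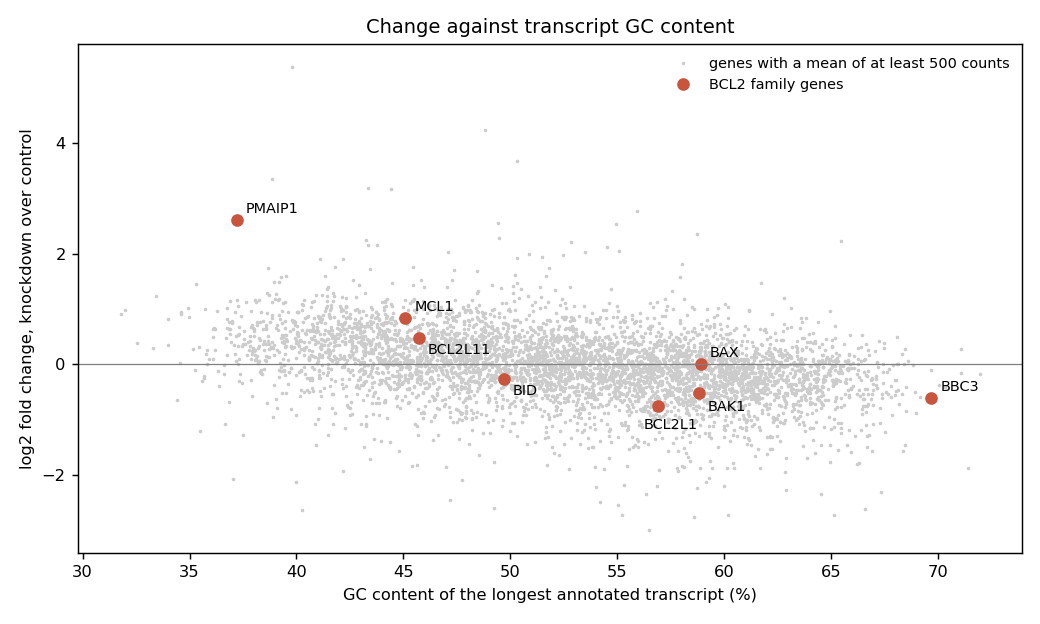
Log2 fold change against GC content of the longest annotated transcript for genes with a mean count of 500 or more (grey) and the 8 BCL2 family genes at that level (red). The grey cloud slopes downward to the right, PMAIP1 lies above it, and BBC3 and BAK1 lie within it.

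Of 13 other BCL2 family genes, 11 were tested, 4 rose, 1 fell and 6 did not pass, beside 8.12% higher and 8.43% lower of all genes tested. Of the 5 with a mean of at least 500 counts 3 passed, against 68% of all genes at that level. Among those with a mean of at least 500 counts, BNIP3L, a mitophagy receptor, rose by 0.29 ± 0.08 (log2, SE, edgeR adjusted p = 0.0492) and BCL2L12 by 0.22 ± 0.05 (edgeR adjusted p = 0.0101). The BH3-only gene BAD fell by 0.23 ± 0.05 on the log2 scale (edgeR adjusted p = 0.00895), while BCL2L13 (0.10 ± 0.06) and BNIP3 (0.17 ± 0.06) did not pass. With the GC trend removed BNIP3L did not pass (-0.09) and BAD was higher (0.14, edgeR adjusted p = 0.0478), so the sign of both turned with this step. In the same fit BCL2L12 was at 0.47 (edgeR adjusted p = 1.42e-07), and BNIP3 passed at 0.15 (edgeR adjusted p = 0.0470). Of the exon bases of BCL2L12, 33.1% also lie in IRF3 on the other strand, and of those of BAD 23.7% lie in GPR137, so reads there may be shared. The BH3-only gene BMF had 311, 168 and 297 counts in control libraries, against 416, 456 and 392 in knockdown libraries. BOK, a BAX-like effector gene, had 396, 445 and 306, and 509, 577 and 542. Both rose (edgeR adjusted p = 0.0403 and 0.0485), and the modelled changes were 1.18 (95% interval 1.02 to 1.34) for BMF and 0.70 (0.55 to 0.97) for BOK. BCL2L2, which encodes BCL-w, was at 385, 393 and 424 against 407, 474 and 397 counts and did not pass (0.12 ± 0.10, edgeR adjusted p = 0.542).

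Genes that act beside or below the family were counted from fixed lists, and each count stands beside the 16.5% of all genes tested and the 68% of genes with a mean count of 500 or more that passed. Of 10 genes of the mitochondrial outer membrane and the apoptosome, 5 rose, 2 fell and 3 did not pass, with a median log2 fold change of 0.46 against 0.02 over all genes tested. At a mean of at least 500 counts 6 of 7 passed. Cytochrome c (CYCS) rose by 1.07 ± 0.09 (SE), from counts of 935, 1043 and 1126 to 1987, 2128 and 2250. The channel genes VDAC1 (0.77 ± 0.04) and VDAC3 (0.61 ± 0.07) and the flavoprotein gene AIFM1 (0.60 ± 0.07) rose too, with edgeR adjusted p of 0.000565 or less for all 4. Of 9 caspases and their substrates, 2 rose, 4 fell and 3 did not pass (median -0.45, against 0.02 over all genes tested). All 5 with a mean count of 500 or more passed. DFFA, the inhibitor and chaperone of the caspase-activated nuclease, fell from 1998, 2141 and 2169 to 739, 873 and 649 counts (log2 fold change -1.45 ± 0.09 SE, edgeR adjusted p = 9.85e-06). PARP1 (-0.75 ± 0.03) and CASP2 (-0.52 ± 0.10) fell as well, and GSN, the actin-severing protein gelsolin, rose by 0.50 ± 0.04. With the GC trend removed these 8 genes kept their direction and passed, at 0.76 for CYCS and -1.56 for DFFA.

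Of 5 tested inhibitors of apoptosis, BIRC5, which encodes survivin, passed and rose (0.48 ± 0.04 SE, edgeR adjusted p = 4.28e-05), and the other 4, all with a mean under 500 counts, did not pass. Of 11 tested death receptor genes, 3 rose, 1 fell and 7 did not pass (median 0.07). At a mean of at least 500 counts 4 of 8 passed, a smaller share than the 68% of all genes at that level. The TRAIL receptor gene TNFRSF10A (0.43 ± 0.05), RIPK1 (0.49 ± 0.13) and CASP8 (0.42 ± 0.08), whose product cuts BID, rose, and the TNF receptor gene TNFRSF1A fell by 0.67 ± 0.06 on the log2 scale. RIPK1 and CASP8 reached a mean of 500 counts only through their knockdown libraries, so the share called at that level leans on their rise. With the GC trend removed CASP8 did not pass (0.14, edgeR adjusted p = 0.228). Of 20 genes that regulate the family, 4 rose, 5 fell and 11 did not pass, with a median of 0.01, and 8 of the 10 with a mean of at least 500 counts passed. SPI1, which encodes the myeloid factor PU.1, fell by 1.13 ± 0.05 on the log2 scale, and the stress factors ATF3 (1.04 ± 0.14) and JUN (1.03 ± 0.05) rose, with edgeR adjusted p of 0.000862 or less. ATF4, a stress factor on the same list, fell (log2 fold change -0.56 ± 0.03 SE, edgeR adjusted p = 7.61e-06), so the stress factors did not move together. ATF3 reached a mean of 500 counts only through its knockdown libraries, so the count at that level leans on its rise. With the added number modelled, a test that 33.6% of 28315 genes passed, the counts were 7 higher and 7 lower of 20 for regulators, 3 and 3 of 12 for death receptor genes, 1 and 2 of 7 for inhibitors of apoptosis, 3 and 5 of 9 for caspases and substrates, 6 and 3 of 10 for outer membrane and apoptosome genes and 5 and 1 of 13 for the other family genes.

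By the Euclidean distance between centred log2 CPM profiles over the 6 libraries, the genes most like PMAIP1 were ENC1 (distance 0.193, log2 fold change 2.55), FAM83A (0.217 and 2.54) and DUSP5 (0.339 and 2.77). The genes most like BCL2L1 were NCAPH2 (0.0543 and -0.73), KIF3C (0.0551 and -0.75) and LRP5 (0.0691 and -0.77). Over 6 libraries in 2 groups, genes with a change of like size are close by construction.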

How the data were processed

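The authors deposited 1 table of counts, whole numbers per gene that the file header names as raw, for 6 poly(A)-selected paired-end RNA-seq libraries (control n = 3, knockdown n = 3, grouped by sample title). The submitters' processing notes list STAR, HTSeq, fastp, FastQC, R 4.3.3 and DESeq2 without saying what each was used for, on GRCh38. How reads were counted, on which strand and against which annotation is not given in the sources used here. Gene names came from a table that matched 61803 of 61852 IDs, coordinates, exon lengths and transcript GC content from GENCODE on GRCh38, and promoters from RefSeq (GRCh38.p14). No protein sequences were used here, so the planned search for the BH3 core was not run.

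The counts as deposited were fitted with edgeR 4.0.16 (TMM, filterByExpr with a minimum count of 10, robust quasi-likelihood F-test, no block, Benjamini-Hochberg adjustment over 28303 genes, threshold 0.05). The added number was modelled per gene with a dispersion of 0.0014, edgeR's common value for 1808 genes with a mean count of 2000 or more, and a likelihood-ratio test. Alternatives were other scalings, no filter, a mean of at least 500 counts, DESeq2 1.42.0, limma-voom 3.58.1, a replicate block and leaving out each library on the same genes. The GC fit used a loess trend (span 0.5) per library as an offset. Scripts were tested on simulated counts. For genes with a mean under 500 counts, edgeR recovered 0% of true log2 changes of 0.5 and of 1, and 10% of those of 2. At a mean of 500 or more it recovered 35.3%, 100% and 87.5%. A gene with few counts that did not pass in edgeR may therefore still have changed. Members and lists were chosen with earlier results of these data known. Genes named are MELK, the members, other family genes with a mean count of 500 or more, up to 4 genes past the threshold per list, and the 3 nearest profiles. Some genes this rule takes are not reported here. BMF, BOK, BIK, BCL2L2, the other low family genes and ATF4 were named after their values were seen.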

Additional observations from a re-analysis of the deposited data

How the results depend on the processing

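The count of 4683 changed genes became 9503 (4721 higher, 4782 lower) with the added number modelled. It stayed within 1.5 times under every other alternative run, and leaving out 1 library gave 3808 to 4064. The deviations of same-numbered libraries from their group means had correlations of 0.0998, -0.0124 and -0.0801, and only those numbered 1 matched their own number best. No pairing by number was seen, and so few libraries cannot exclude one. With the replicate block 4182 genes passed, and the same 7 of 9 tested members. The members PMAIP1, MCL1, BCL2L11, BCL2L1, BAK1 and BID kept their direction and their call in all 16 alternatives, and leaving out 1 library kept 7 members called each time, with edgeR adjusted p of at most 0.0495 (BID). BBC3 lost its call and BAX gained one only with the GC trend removed. BCL2 passed in DESeq2 (adjusted p = 0.0462) and with the added number modelled, and did not pass in the other 12 fits. Without a filter on low counts BCL2A1 was tested and did not pass (3.52, edgeR adjusted p = 0.363), against 1.70 modelled. MELK passed in 4 of 14 alternatives. With a dispersion of 0.00293, estimated over 5038 genes, the modelled changes of BCL2 and BCL2A1 were -0.45 (95% interval -0.68 to -0.23) and 1.70 (0.58 to 3.07). Library size alone shifted the median log2 fold change of well-measured genes by 0.07. The precision for BCL2A1 is limited by its few reads.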

Other observations

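BIK, a BH3-only gene, had 172, 83 and 54 counts in control libraries, against 140, 56 and 66 in knockdown libraries, and its modelled reads were 65.9 (95% interval 56.7 to 75.8) and 51.5 (42.9 to 61.4). BCL2L15 had a log2 fold change of 2.06 ± 1.42 SE in edgeR as deposited (adjusted p = 0.442) and a modelled change of -1.35 (95% interval -2.18 to -0.26), which did not pass after adjustment (likelihood-ratio test, adjusted p = 0.0544). Its knockdown libraries 2 and 3 held 104 and 108 counts, in which 100 was the most likely addition. HRK had deposited counts of up to 102 and modelled means of 0.798 and 1.33 reads, and BCL2L10 and BCL2L14 held only the 5 added numbers.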
